A study of Mus musculus with 6 samples.

Results

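The SR, hnRNP and other splicing regulators were followed in mouse embryonic stem cells that had lost Ddx5, an RNA helicase also known as p68. They were taken as the genes whose symbols belong to the Srsf, Tra2, Srrm, Clk, Srpk, Hnrnp, Ptbp, Mbnl, Rbfox, Celf and Esrp families, 53 of the 10989 genes of the expression table. Of these, 52 encode proteins, and Srrm4os is an antisense RNA. The choice used gene symbols and no expression value. RNA had been sequenced from 4 knockout (KO) lines, DDX5-/- cells of the MPI-II line each grown from a single clone, and from 2 wild-type (WT) libraries, DDX5+/+ MPI-II cells. Both groups were at passages 13 to 18 and grew on feeder cells in serum medium that held leukemia inhibitory factor together with inhibitors of MEK (PD0325901) and GSK3. The KO lines had been made with a Cas9 nickase and paired guides and selected with G418, and no label says whether the WT cells went through the same steps. Whether the WT replicates were separate cultures is not stated, so the spread between them may be technical. The p-values speak of the spread within the groups, among these 4 KO lines and between these 2 WT libraries.

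Both guides matched the coding sequence of Ddx5 exactly, and they are shown because they define the KO lines. The first lies at chr11:106788275-106788294 and the second at chr11:106787009-106787028 (build mm10, gene on the minus strand), in exons 1 and 2 of the Ddx5-201 transcript, whereas the labels place the pair in the second exon. The capitals mark the PAM, which was read only where it lies in the same exon as the target.
Ddx5 target 1: gagaccgcggccgggatcga
Ddx5 target 2: ggaaagaagtttggaaatccTGG

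Pre-mRNA splicing is steered by proteins that bind exons and introns and recruit or block the spliceosome. SR proteins, which carry arginine- and serine-rich domains, mostly promote the use of nearby exons, and they enter the nucleus and become active after phosphorylation by Srpk and Clk kinases. Proteins of the heterogeneous nuclear ribonucleoprotein (hnRNP) group coat nascent RNA and often repress exons. Mbnl, Celf, Rbfox, Ptbp and Esrp proteins shift splicing between tissues. In human cells, DDX5 and its paralog DDX17 work with hnRNP H and hnRNP F on alternative exons.

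The deposited values are normalized expression scores in whole units, here called deposited units. Their totals, 14612799 to 14722877 per library, were set by the normalization, so sequencing depth is unknown and a change in total RNA cannot be seen. WT replicate 2 differed from the rest in listing 131 genes at 0, where each other library listed 13 to 19. Ddx5 itself had 5854, 8450, 12793 and 5659 units in KO lines 1 to 4, against 36433 and 36436 units in WT replicates 1 and 2 (log2 -2.23, SE 0.317, adjusted p = 0.00807, limma). All 14 embryonic stem cell markers were measured and none was at 0 in any library. Among these 14, limma called 1 higher and 2 lower in the KO lines, with a median log2 fold change of -0.01. Their summed level was 136377 to 143743 units in the KO lines, against 183235 and 113374 units in WT. Of 20 measured fibroblast markers, which the feeder cells can contribute, limma called 18 lower and 0 higher in the KO lines. Their median log2 fold change was -2.72. Their summed level was 43172 to 46813 units in the KO lines, against 90988 and 58193 units in WT, none was at 0 in all KO lines, and their part in the results below was not tested. In such bulk samples, fewer cells of a type and less RNA per cell cannot be told apart.

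Loss of Ddx5 was accompanied by changes in 15 of the 53 splicing regulators, 7 higher and 8 lower in the KO lines. The test was limma on log2 values with Benjamini-Hochberg adjustment across the 10989 genes, and calls required an adjusted p below 0.05. The 15 are 28.3% of the regulators; of all genes, 17.1% were called, 9.75% higher and 7.34% lower. Higher were the neuronal regulator Celf5, the antisense RNA Srrm4os, the kinases Clk3, Clk2 and Srpk1, the poly(C)-binding Hnrnpk, and Celf1. Lower were Hnrnpdl, the SR proteins Srsf3 and Srsf6, Hnrnpa3, Mbnl1, Ptbp2, Hnrnpul2 and the kinase Clk4. Most changes were small: Celf5, Srrm4os and Clk3 were the 3 of the 15 that also changed 2-fold or more, 5.66% of the regulators against 6.56% of all genes. Srrm4os is in the table only because it was high in KO, and without it 14 of 52 regulators (26.9%) were called, 6 of them higher, and 2 (3.85%) passed 2-fold. The median log2 fold change was -0.08 over the regulators and 0.04 over all genes, and the median size without sign was 0.31 and 0.29.

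**Figure D1:**
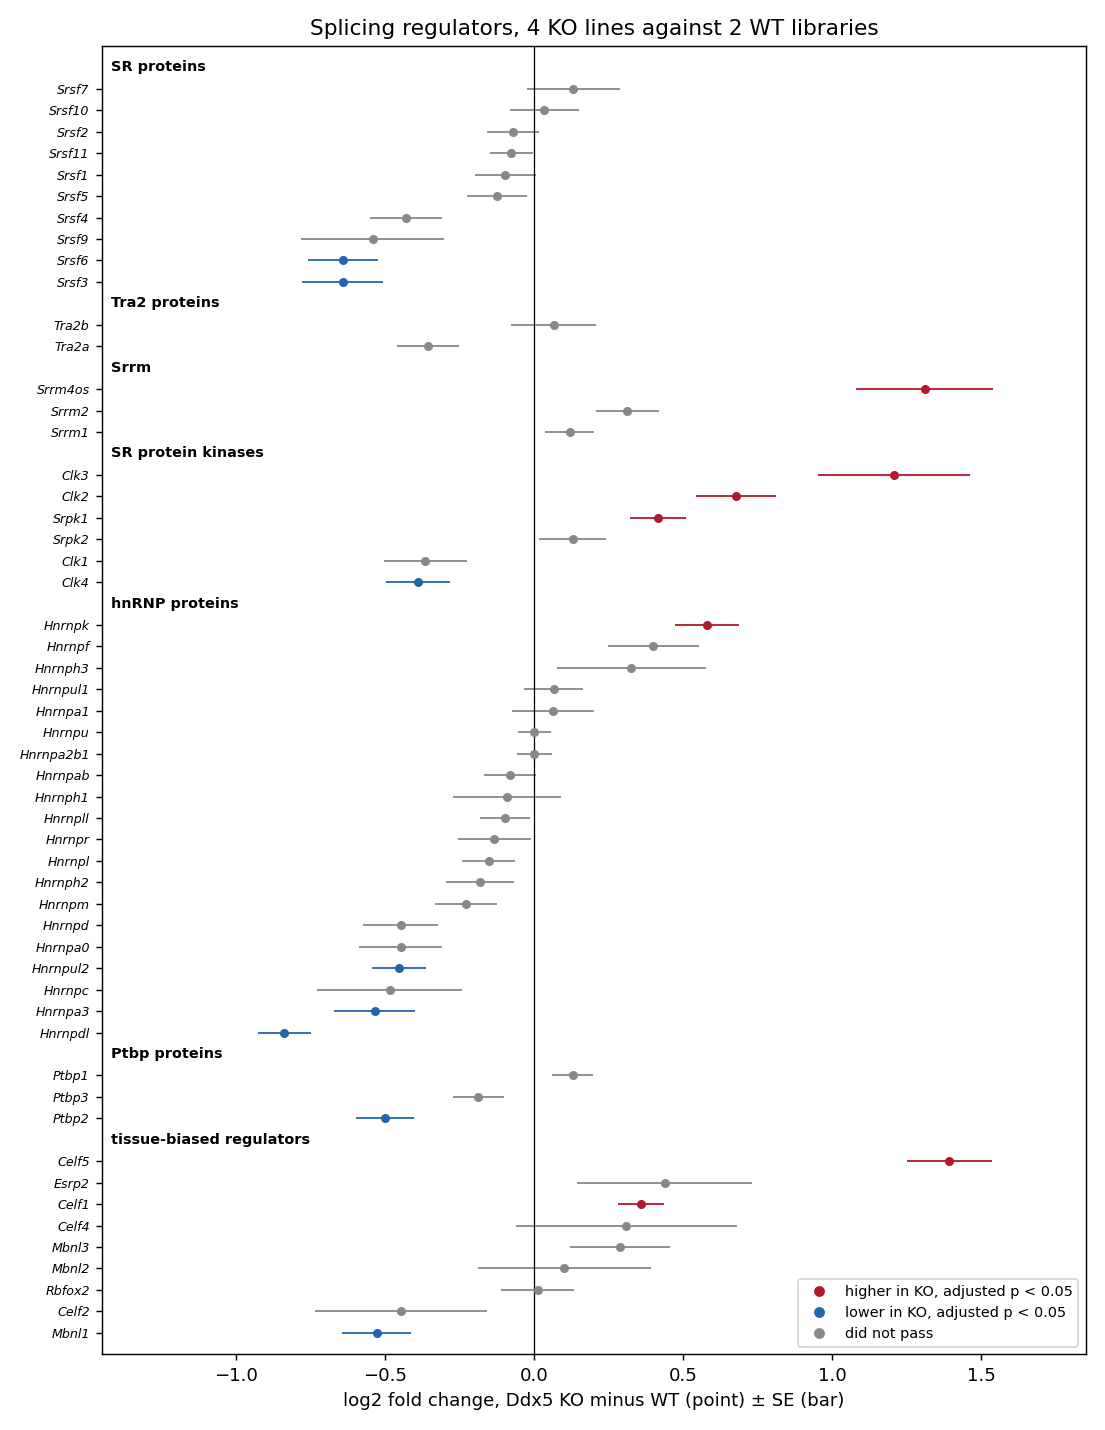
Log2 fold change of each of the 53 splicing regulators, KO minus WT, with its standard error as a bar, grouped by family; 4 KO lines against 2 WT libraries, called genes in colour. The changes run from -0.84 (Hnrnpdl) to 1.39 (Celf5), and most points lie within 0.6 of 0.

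Most of these calls were lost when a single library was left out. Celf5 and Hnrnpdl were the 2 that passed with each of the 6 libraries left out in turn. Without KO line 2, 13 of the 15 calls were lost, without KO line 3, 12, and without WT replicate 2, 9; the other 3 libraries cost 1 to 5 calls each. The sizes of the changes moved little without a KO line: the 15 log2 fold changes were 0.963 to 1.03 times those of all libraries without KO line 2, and 0.973 to 1.11 times without KO line 3. Without 1 WT replicate they moved more, to 0.526 to 1.47 times, with Hnrnpa3 at both ends. Calls over all genes were lost too, with 4.30% called without KO line 2 and 5.21% without KO line 3. At an unadjusted p below 0.05 there were 22 regulators (41.5%), against 36% of all genes. Weighting the libraries by their noise also left Celf5 and Hnrnpdl alone. In none of these fits did a called regulator change its sign, and in 26 of the 53 the 4 KO lines and the 2 WT libraries did not overlap, with KO higher in 10 and lower in 16. That is 49.1%, against 43.7% of all genes (24.1% higher and 19.6% lower), so separation of the groups was only a little more frequent here than elsewhere.

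**Figure D2:**
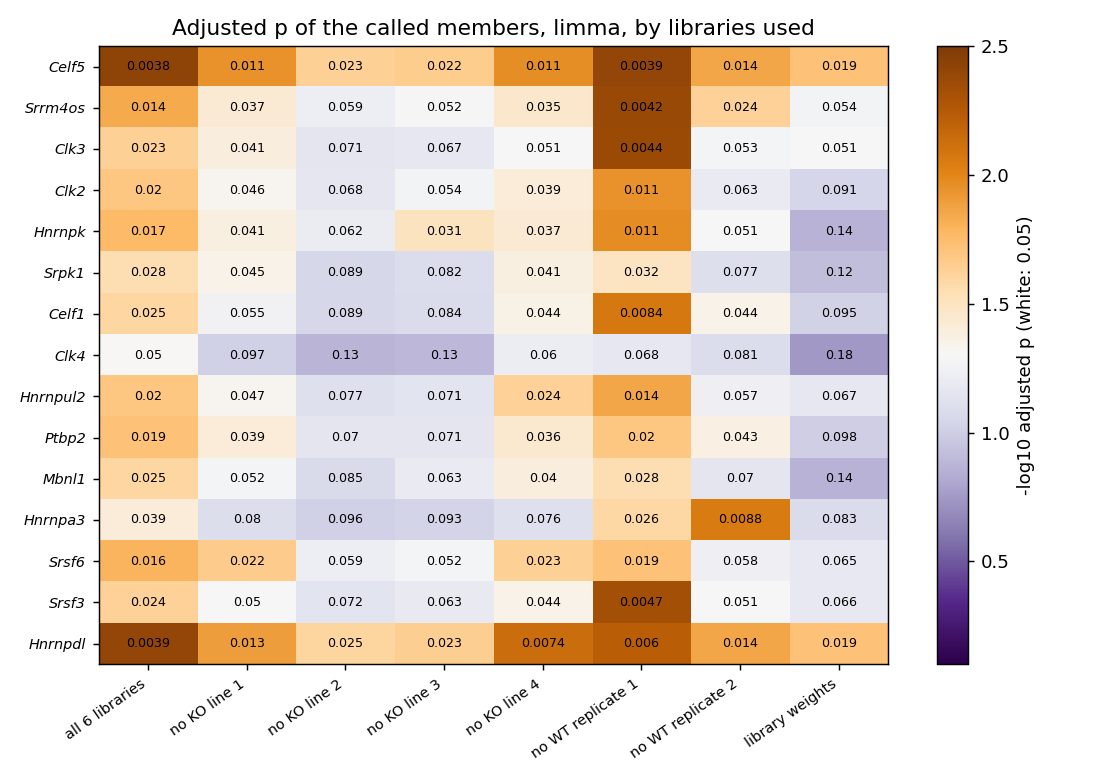
Adjusted p from limma of the 15 called regulators (rows) with all 6 libraries, with each library left out, and with library weights (columns); orange lies below 0.05 and purple above. Celf5 and Hnrnpdl stay below 0.05 in every column, while most others lie above it without KO line 2 or KO line 3.

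Of the 10 SR proteins measured, limma called 2 lower and 0 higher (3 and 0 at an unadjusted p below 0.05). Their median log2 fold change was -0.11, and 8 of the 10 had a negative value. Over all genes, 7.34% were called lower and 9.75% higher, the median was 0.04, and 5025 of 10989 had a negative value. Srsf1, Srsf2 and Srsf5, among the 8, turned positive with a WT replicate left out. Coordinates of called genes are those of GENCODE M21 on mm10. Srsf3 (chr17:29032628-29043373, plus strand), the smallest SR protein, which also works in mRNA export, stood at 8638, 9663, 10047 and 10047 units in the KO lines, against 12772 and 17544 units in WT replicates 1 and 2. All 4 KO lines were below both WT libraries (log2 -0.64, SE 0.137, adjusted p = 0.0237). Srsf6 (chr2:162931528-162937121, plus strand), a splicing enhancer-binding SR protein, had 6447, 5659, 5854 and 4925 units in the KO lines, against 8450 and 9363 units in WT, again without overlap (log2 -0.64, SE 0.118, adjusted p = 0.0162). The call of Srsf3 was lost without WT replicate 2, where the change was -0.41 (adjusted p = 0.0507), and without KO lines 1, 2 or 3 (adjusted p up to 0.0721). That of Srsf6 was lost without WT replicate 2, KO line 2 or KO line 3 (adjusted p up to 0.059).

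Around the start of Srsf3 the promoter window, 250 bases before to 50 after the RefSeq start, holds a match to the CCAAT box, on the opposite strand as ATTGG, and one to the TATA box. Like those of Clk3, Hnrnpdl and Celf5 further on, it is shown because these protein-coding regulators had the largest rises and falls. Sequences are from RefSeq on GRCm38.p6, 5′ to 3′ on the gene's strand, and capitals mark matches on either strand to a TATA box spelled TATAAA, the CCAAT box, a GC box spelled GGGCGG, and an ETS site spelled CCGGAAG.
Srsf3 promoter, chr17:29032410-29032709, plus strand: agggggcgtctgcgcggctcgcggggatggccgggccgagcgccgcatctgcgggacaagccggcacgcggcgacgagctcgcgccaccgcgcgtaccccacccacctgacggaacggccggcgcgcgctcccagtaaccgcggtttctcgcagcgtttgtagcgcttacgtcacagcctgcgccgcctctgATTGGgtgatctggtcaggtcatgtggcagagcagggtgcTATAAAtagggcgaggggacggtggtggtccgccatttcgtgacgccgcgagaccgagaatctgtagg
Of all 32851 RefSeq windows of this length, 13.6% hold TATAAA, 37.4% CCAAT, 35.7% GGGCGG and 8.86% CCGGAAG. Windows were found for 45 of the 53 regulators, and they were compared with the 8270 genes of the table that had a window, counting a gene where any of its windows held the motif. TATAAA occurred in 15.6% of the regulators and 8.30% of the table's genes, CCAAT in 55.6% and 44.5%, GGGCGG in 84.4% and 71.2%, and CCGGAAG in 15.6% and 21.4%.

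The other SR proteins did not pass. Srsf4, a close relative of Srsf6, had 1318, 1446, 1530 and 1462 units in the KO lines and 1732 and 2178 units in WT, so the groups did not overlap (log2 -0.43, adjusted p = 0.0516). It passed with trimmed-mean (TMM) scaling (adjusted p = 0.0434) and with values centred on each chromosome (adjusted p = 0.0407). It did not pass without the trend (adjusted p = 0.0749) or with library weights (adjusted p = 0.17), and its change was -0.27 (adjusted p = 0.171) without WT replicate 2. Srsf9 stood at 651, 698, 728 and 690 units in the KO lines, against 724 and 1416 units in WT. Its value rested on WT replicate 2, the single library that stood high (log2 -0.54, adjusted p = 0.153; -1.02, adjusted p = 0.00414, without WT replicate 1; -0.065, adjusted p = 0.71, without WT replicate 2). Srsf1, the classic splicing factor ASF/SF2, had 5782 to 6312 units in the KO lines and 5782 and 7120 units in WT. For Srsf1, Srsf2, Srsf5, Srsf7, Srsf10 and Srsf11 the log2 fold changes lay between -0.12 and 0.13, with adjusted p from 0.411 to 0.856.

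Of the Tra2 proteins, SR-like activators that bind GA-rich exons, neither passed in limma (1 at an unadjusted p below 0.05). Tra2a had 2344, 2229, 2304 and 2586 units in the KO lines, against 3260 and 2814 units in WT, with no overlap (log2 -0.36, SE 0.103, adjusted p = 0.0557). It lies on chromosome 6, whose genes stood higher in KO line 4 (median 0.42 above their 6-library mean on the log2 scale, 518 genes). Like Srsf4, Tra2a passed with each library centred by chromosome (log2 -0.51, adjusted p = 0.0279) and with TMM scaling (adjusted p = 0.0359), where more genes were called lower. It did not pass without the trend (adjusted p = 0.0876) or with library weights (adjusted p = 0.139). Tra2b had 5790 to 7242 units in the KO lines and 6987 and 5242 units in WT, which overlap.

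Srrm proteins are large SR-related scaffolds of nuclear speckles. Srrm2 had 20704, 17574, 17574 and 17574 units in the KO lines, against 16021 and 13562 units in WT (log2 0.31, SE 0.106, adjusted p = 0.0838), and Srrm1 had 8092 to 8862 units in the KO lines, against 8092 and 7512 units in WT. Srrm4os (chr5:116438720-116465487, plus strand) is transcribed antisense to Srrm4, the gene of a neuronal microexon regulator. It stood at 162, 168, 154 and 182 units in the KO lines, against 76 and 44 units in WT (log2 1.31, SE 0.23, adjusted p = 0.0144; lost without KO line 2 or KO line 3, adjusted p up to 0.0594). Every gene of the table reaches 80 units in at least 2 libraries, and Srrm4os is the 1 regulator below this level in both WT libraries, so it is in the table only because it was high in KO. Whether the counting used strand is not given in the sources used here, so reads of the sense and antisense genes cannot be told apart.

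The SR protein kinases split. Srpk kinases phosphorylate SR proteins in the cytoplasm and Clk kinases do so in the nucleus. Of the 6 measured, Clk3, Clk2 and Srpk1 rose, Clk4 fell, and Clk1 and Srpk2 did not pass, where 17.1% of all genes were called. Clk3 (chr9:57750624-57765860, minus strand) stood at 1193, 1388, 1330 and 1660 units in the KO lines, against 819 and 424 units in WT. The KO lines were above both WT libraries, which themselves differed (log2 1.21, SE 0.255, adjusted p = 0.0233). Without WT replicate 2 the change was 0.75 (adjusted p = 0.0529), and the call was also lost without KO lines 2, 3 or 4 (adjusted p up to 0.0706). The Clk3 window shown here has GC boxes and 1 ETS match, and its RefSeq start lies 746 bases from the GENCODE start of the gene.
Clk3 promoter, chr9:57765065-57765364, minus strand: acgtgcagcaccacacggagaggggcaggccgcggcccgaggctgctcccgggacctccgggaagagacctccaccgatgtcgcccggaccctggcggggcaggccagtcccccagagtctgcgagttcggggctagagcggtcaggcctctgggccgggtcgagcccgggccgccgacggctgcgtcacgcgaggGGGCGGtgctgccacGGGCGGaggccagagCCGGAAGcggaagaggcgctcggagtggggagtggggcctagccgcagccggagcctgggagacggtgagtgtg

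Clk2 (chr3:89164795-89176921, plus strand) had 822, 808, 758 and 932 units in the KO lines, against 574 and 457 units in WT, without overlap (log2 0.68, SE 0.136, adjusted p = 0.0202). Srpk1 (chr17:28587648-28622709, minus strand) had 2752, 2874, 2856 and 3218 units in the KO lines, against 2236 and 2134 units in WT (log2 0.42, SE 0.0939, adjusted p = 0.0282). Both calls were lost without WT replicate 2, KO line 2 or KO line 3, with adjusted p up to 0.0678 for Clk2 and 0.0893 for Srpk1. Clk4 (chr11:51261730-51281766, plus strand) moved the other way, with 422, 465, 464 and 488 units in the KO lines, against 615 and 598 units in WT. Its groups did not overlap, but its adjusted p lay at the threshold (log2 -0.39, SE 0.108, adjusted p = 0.0498), and the call was lost with any of the 6 libraries left out (adjusted p up to 0.135). Clk1, the closest relative of Clk4, had 1774, 1420, 1300 and 1376 units in the KO lines, against 1808 and 1958 units in WT (log2 -0.37, adjusted p = 0.108; -0.46, adjusted p = 0.0428, without KO line 1; not called with any other library left out). Srpk2 had 700 to 830 units in the KO lines and 710 and 654 units in WT.

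The kinases were also compared as ratios within each library. The ratio of Clk3 to Clk4 was 2.83, 2.98, 2.87 and 3.40 in KO lines 1 to 4, against 1.33 and 0.709 in WT replicates 1 and 2. That of Clk2 to Clk1 was 0.463, 0.569, 0.583 and 0.677 in the KO lines, against 0.317 and 0.233 in WT. Neither ratio overlapped between the groups. In all, 10 ratios between related regulators were compared, chosen after their values were seen, and 9 of them did not overlap. Each pair held a called regulator whose own groups did not overlap, so this count was largely set by the choice of pairs. The exact two-sided permutation test used here doubles the smaller tail and allows no p below 0.133. These 9 had that p (0.148 adjusted over the 10), so the ratios are given as values.

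**Figure D3:**
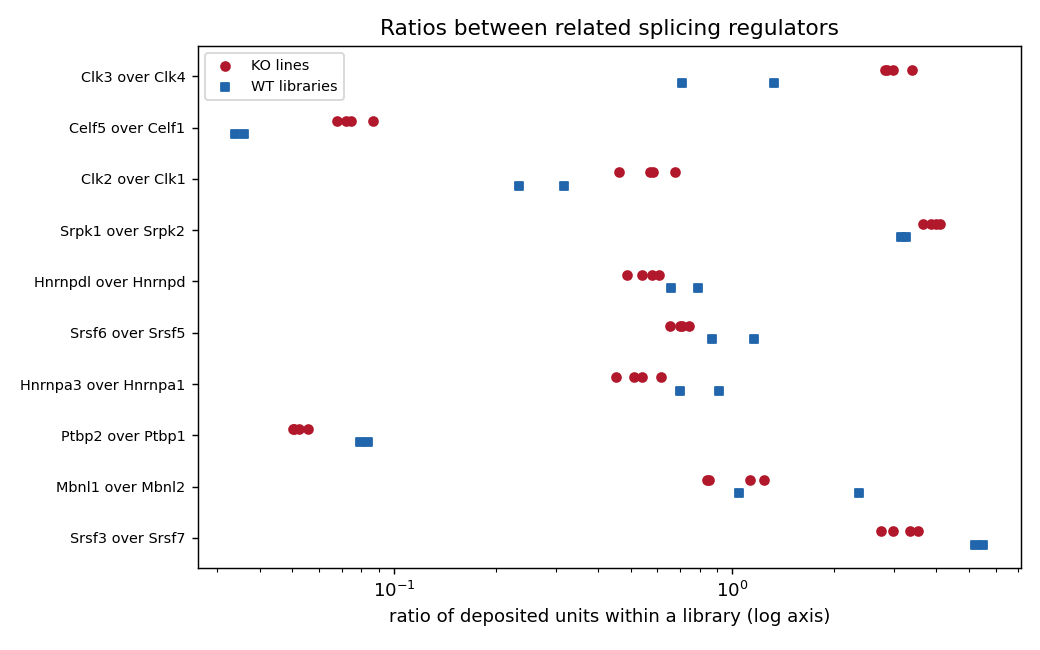
Ratio of deposited units between 10 pairs of related regulators within each library, on a log axis; circles are the 4 KO lines and squares the 2 WT libraries. The ratios of Clk3 to Clk4 and of Clk2 to Clk1 are higher in each KO line than in WT, those of Srsf3 to Srsf7 and of Ptbp2 to Ptbp1 are lower, and those of Mbnl1 to Mbnl2 overlap.

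Of the 20 hnRNP genes, 1 rose, 3 fell and 16 did not pass, with a median log2 fold change of -0.12. Of all genes, 17.1% were called, 9.75% higher and 7.34% lower. Hnrnpdl (chr5:100033577-100039664, minus strand), an AU-rich element-binding paralog of Hnrnpd, had the largest fall of all 53 regulators. It stood at 3842, 3912, 3948 and 4464 units in the KO lines, against 7233 and 7226 units in WT. The KO mean of 4042 ± 285 units (SD, n = 4) was 0.559 times the WT mean (log2 -0.84, SE 0.0891, adjusted p = 0.00394), and the call held with each library left out (log2 -0.89 to -0.82, adjusted p up to 0.0248). The window of its RefSeq start, which lies 442 bases from the GENCODE start, holds GC boxes and none of the other letters searched.
Hnrnpdl promoter, chr5:100039173-100039472, minus strand: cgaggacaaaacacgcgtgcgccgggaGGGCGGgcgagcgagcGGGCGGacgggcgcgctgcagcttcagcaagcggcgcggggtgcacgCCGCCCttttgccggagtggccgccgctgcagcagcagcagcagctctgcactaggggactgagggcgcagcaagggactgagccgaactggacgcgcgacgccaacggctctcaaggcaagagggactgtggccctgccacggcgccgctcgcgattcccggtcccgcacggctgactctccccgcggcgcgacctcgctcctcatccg
Hnrnpd, also called AUF1, had 6324, 7242, 8112 and 7719 units in the KO lines, against 10963 and 9110 units in WT. It lay on the same side without a call (log2 -0.45, adjusted p = 0.0516). Like Srsf4, it passed with TMM scaling (adjusted p = 0.038) and with values centred by chromosome (adjusted p = 0.0437), where more genes were called lower. It did not pass without the trend (adjusted p = 0.0846) or with library weights (adjusted p = 0.214). The ratio of Hnrnpdl to Hnrnpd was 0.487 to 0.608 in the KO lines, against 0.66 and 0.793 in WT.

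Hnrnpa3 (chr2:75659261-75669407, plus strand), an hnRNP of the A/B type, had 12772, 13542, 13542 and 12772 units in the KO lines, against 22762 and 15992 units in WT (log2 -0.54, SE 0.136, adjusted p = 0.0391). The call was lost without any 1 of the KO lines (adjusted p up to 0.0962), and the change was -0.28 without WT replicate 1. Its level is uncertain: 34 other annotated genes, 33 of them pseudogenes, share a stretch of at least 500 bases at 90% identity or more with its transcript, and how reads were assigned among them is not given in the sources used here. Such copies exist for 19 of the 53 regulators, among the called ones also for Srsf3, Srpk1 and Hnrnpdl (1 each) and Hnrnpk (2), whose levels are uncertain in the same way. Hnrnpul2 (chr19:8820010-8834143, plus strand), a protein of the hnRNP U family, had 4334, 4294, 4334 and 4842 units in the KO lines, against 5770 and 6447 units in WT (log2 -0.46, SE 0.0914, adjusted p = 0.0203). It did not pass without WT replicate 2, KO line 2 or KO line 3 (adjusted p up to 0.0767). Hnrnpk (chr13:58391142-58403343, minus strand) was the 1 member that rose, with 29855, 29855, 25010 and 29855 units in the KO lines, against 20748 and 17600 units in WT (log2 0.58, SE 0.108, adjusted p = 0.017; lost without WT replicate 2 or KO line 2, adjusted p up to 0.0618). At such levels the table moves in steps: 29855, 25010 and 20748 units also occur for Hnrnpa1, so the size of the rise is approximate. Repeated values also occur among the KO lines of Hnrnpa3, Celf1 and Srsf3. The part of these steps in their SE and adjusted p was not tested.

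Hnrnpf and the Hnrnph genes, whose proteins bind runs of G, did not pass. Hnrnpf had 24993, 29828, 29828 and 36433 units in the KO lines, against 24993 and 20704 units in WT (log2 0.40, SE 0.152, adjusted p = 0.109). It too lies on chromosome 6, was highest in KO line 4, and had a log2 change of 0.25 with values centred by chromosome. Hnrnph1 had 10047, 10372, 10919 and 6944 units in the KO lines, against 10047 and 10048 units in WT. KO line 4 was the low one, and without it the change was 0.06 in place of -0.09. Hnrnph2 had 1753 to 1967 units in the KO lines and 2406 and 1952 units in WT. Hnrnph3, with 828, 923, 688 and 476 units in the KO lines, against 583 and 542 units in WT, varied most among the KO lines of all 53 regulators (SD 0.41 on the log2 scale).

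The most abundant regulators were hnRNPs. Per kilobase of transcript, the highest mean levels over the 6 libraries belonged to Hnrnpa2b1 (18140 units per kb), Hnrnpa1 (14243), Hnrnpf (12240), Hnrnpu (10326), Hnrnpk (9565) and Hnrnpa3 (9208). Hnrnpu, a nuclear matrix-binding hnRNP, held the top value of 78894 units, shared with 9 other genes, in all 6 libraries. Hnrnpa2b1 held 29876 units in all 6. A difference between the groups would not show at the top value of Hnrnpu. At the value of Hnrnpa2b1, a difference smaller than a step of the table would not show either. Hnrnpa1 had 20748, 25010, 29855 and 25010 units in the KO lines and 25010 and 22812 units in WT, and 13 pseudogenes share long near-identical stretches with it. The ratio of Hnrnpa3 to Hnrnpa1 was 0.454 to 0.616 in the KO lines, against 0.91 and 0.701 in WT.

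Among the other hnRNP genes that did not pass, Hnrnpa0 had 2855 to 3064 units in the KO lines, against 3344 and 4752 units in WT (log2 -0.45, adjusted p = 0.0675; -0.70, adjusted p = 0.00529, without WT replicate 1; -0.20, adjusted p = 0.178, without WT replicate 2). Hnrnpc, which binds U-rich tracts, had 6944, 7328, 7328 and 7216 units in the KO lines, against 7096 and 14340 units in WT. Its whole difference came from WT replicate 2 (log2 -0.49 with all libraries, 0.02 without that replicate, and -0.99, adjusted p = 0.00134, without WT replicate 1). Hnrnpab, Hnrnpl, Hnrnpll, Hnrnpm, Hnrnpr and Hnrnpul1 had log2 fold changes between -0.23 and 0.06, with adjusted p from 0.164 to 0.672.

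The Ptbp proteins bind pyrimidine tracts and repress exons, and Ptbp1 is known to lower Ptbp2 by causing an exon of it to be skipped. Ptbp2 (chr3:119718742-119784466, minus strand), the form typical of neurons, fell, with 608, 599, 574 and 552 units in the KO lines, against 820 and 843 units in WT (log2 -0.50, SE 0.0982, adjusted p = 0.019; lost without KO line 2 or KO line 3, adjusted p up to 0.0706). Ptbp1 had 10934, 11428, 11428 and 10934 units in the KO lines, against 10384 and 10063 units in WT. The KO lines lay just above WT, and the difference did not pass (log2 0.13, adjusted p = 0.22). The ratio of Ptbp2 to Ptbp1 was 0.0502 to 0.0556 in the KO lines, against 0.079 and 0.0838 in WT. Ptbp3 had 2745 to 3055 units in the KO lines and 3332 and 3177 units in WT (log2 -0.19, adjusted p = 0.158).

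Of the 9 regulators of the Mbnl, Rbfox, Celf and Esrp families, 2 rose and 1 fell, where 17.1% of all genes were called. Celf5 (chr10:81459227-81482709, minus strand), a GU-binding regulator known mainly from neurons, had the largest rise of all 53. It stood at 594, 511, 504 and 463 units in the KO lines, against 204 and 172 units in WT, so each KO line was far above either WT library. The KO mean of 518 ± 54.9 units (SD, n = 4) was 2.76 times the WT mean of 188 ± 22.6 units (SD, n = 2). On the log2 scale the rise was 1.39 (SE 0.143, adjusted p = 0.0038). With each library left out it lay between 1.28 and 1.51 (adjusted p up to 0.0234). Its window shown here, the nearest of 5 listed to the GENCODE start, holds 3 GC boxes, 2 of which overlap.
Celf5 promoter, chr10:81482650-81482949, minus strand: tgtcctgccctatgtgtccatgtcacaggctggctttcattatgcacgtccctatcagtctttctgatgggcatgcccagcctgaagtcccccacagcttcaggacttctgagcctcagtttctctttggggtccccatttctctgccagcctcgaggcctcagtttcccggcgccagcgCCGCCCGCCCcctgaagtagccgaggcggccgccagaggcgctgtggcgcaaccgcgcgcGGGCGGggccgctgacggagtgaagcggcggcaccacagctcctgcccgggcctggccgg
Celf1 (chr2:90940382-91019497, plus strand), which acts in splicing and in the decay of GU-rich mRNAs, had 6845, 6845, 6983 and 6845 units in the KO lines, against 5678 and 5072 units in WT (log2 0.36, SE 0.0778, adjusted p = 0.0254; lost without KO lines 1, 2 or 3, adjusted p up to 0.0887). The ratio of Celf5 to Celf1 was 0.0676 to 0.0868 in the KO lines, against 0.0359 and 0.0339 in WT. Celf2 had 101 to 132 units in the KO lines and 224 and 110 units in WT, and Celf4 had 52 to 90 units in the KO lines and 84 and 34 units in WT. Both overlapped, and their WT libraries differed by 0.94 and 1.02 on the log2 scale.

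Mbnl1 (chr3:60472830-60629750, plus strand), which in mice and humans turns off stem cell splicing patterns during differentiation, fell. It stood at 530, 518, 561 and 462 units in the KO lines, against 730 and 775 units in WT (log2 -0.53, SE 0.115, adjusted p = 0.0254; lost without WT replicate 2 or KO lines 1, 2 or 3, adjusted p up to 0.085). Its relative Mbnl2 could not be placed, with 622, 458, 452 and 550 units in the KO lines and 700 and 328 units in WT (log2 0.10, adjusted p = 0.827). Mbnl3 had 248, 243, 276 and 326 units in the KO lines, against 201 and 240 units in WT (log2 0.29, adjusted p = 0.261). The KO lines lay above both WT libraries, by 3 units in the closest case. Rbfox2, the Rbfox protein of stem cells, had 1755 to 2144 units in the KO lines and 2164 and 1778 units in WT. Esrp2, an epithelial splicing regulator, had 180, 300, 254 and 186 units in the KO lines, against 120 and 218 units in WT (log2 0.44, adjusted p = 0.325). It lies on chromosome 8, whose genes stood lower in KO line 1 and WT replicate 1 (median 0.32 and 0.34 below the 6-library mean, log2, 603 genes) than in the other libraries, and Esrp2 was lowest in these 2 libraries.

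**Figure D4:**
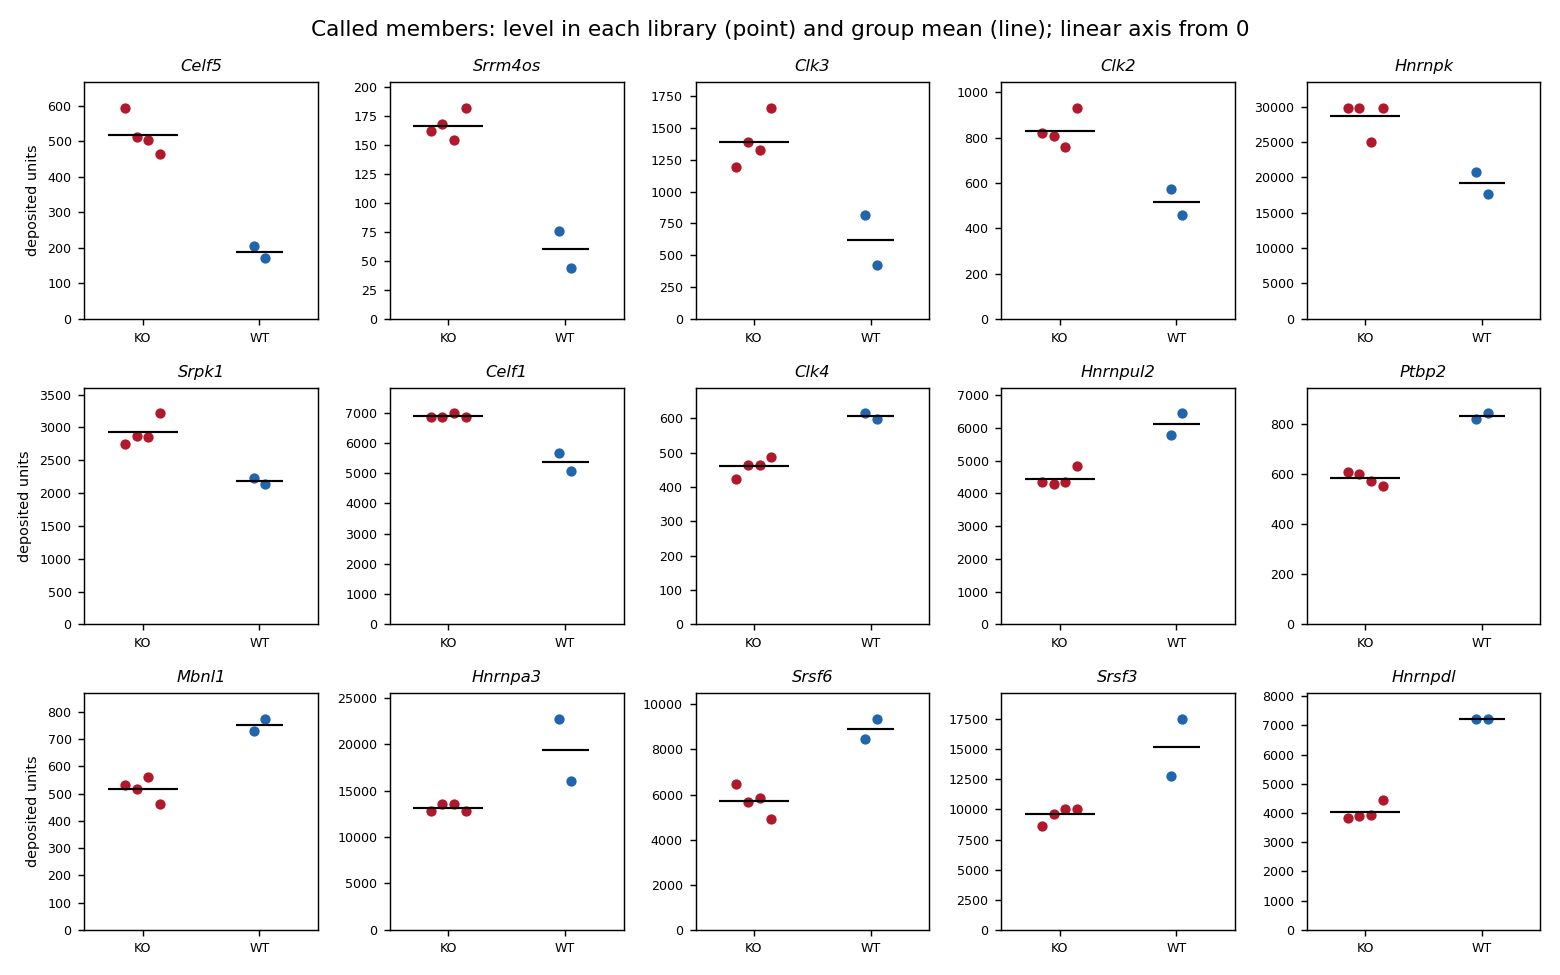
Level in deposited units of the 15 called regulators in each library, 4 KO lines on the left and 2 WT libraries on the right of each panel, with the group mean as a line and axes that start at 0. No panel shows an overlap of the groups; WT replicates lie far apart for Clk3, Hnrnpa3 and Srsf3 and close together for Hnrnpdl and Ptbp2.

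Within each group the regulators had a smaller spread than the median gene. The median SD among the KO lines was 0.10 on the log2 scale, against 0.15 over all genes, and the median gap between the WT libraries was 0.24, against 0.31. The regulators were also more abundant, with a median of 3294 units against 552.5 over all genes; spread at matched levels was not tested. The widest WT gaps were those of Mbnl2 (1.06), Celf4 (1.02) and Hnrnpc (1.01).

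A further feature the choice did not use is their transcript annotation. SR and hnRNP genes are known to control their own levels through exons that lead to nonsense-mediated decay (NMD). In GENCODE M21, 34 of the 53 (64.2%) have at least 1 transcript annotated as an NMD target, against 29.0% of 10941 matched genes, and 43 (81.1%) have a transcript with a retained intron, against 59.9%. The regulators also have more annotated transcripts, a median of 10 against 5. Of the 8 that fell, 5 have an NMD transcript and 8 a retained-intron transcript; of the 7 that rose, 4 and 5 do. The values are sums per gene, so shifts between such isoforms are not visible in them.

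A list of 85 other measured splicing factors, which left out Ddx5, was tested in the same fit. Of these, 3 rose, 10 fell and 72 did not pass, with a median log2 fold change of -0.02. The 13 called are 15.3% of the list, against 17.1% of all genes. The largest called rise was that of Ddx17, the paralog of Ddx5, with 12197, 10934, 10063 and 10934 units in the KO lines, against 4395 and 4742 units in WT (log2 1.27, SE 0.0955, adjusted p = 0.00201). Zranb2, an SR-like zinc finger protein, had 2658, 2406, 2632 and 2726 units in the KO lines, against 1652 and 1737 units in WT (log2 0.62, adjusted p = 0.00853). Raver2, a cofactor of Ptbp proteins, had 220, 220, 218 and 282 units in the KO lines, against 100 and 140 units in WT (log2 0.90, adjusted p = 0.025; lost without KO lines 1, 2 or 3, adjusted p up to 0.077). The largest called falls after Ddx5 were those of the cold-inducible RNA-binding proteins. Rbm3 had 3760, 4024, 4147 and 4059 units in the KO lines, against 9089 and 12816 units in WT (log2 -1.43, SE 0.138, adjusted p = 0.00333). Cirbp had 513, 476, 388 and 406 units in the KO lines, against 915 and 1274 units in WT (log2 -1.26, SE 0.177, adjusted p = 0.00789). Both passed with each library left out, as did Ddx17 and Zranb2, and their fall exceeded that of each of the 53 regulators in size.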

How the data were processed

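RSEM 1.2.17, Bowtie2 2.2.0 and build mm10 appear in the submitters' processing notes; their roles, the annotation and the normalization are not stated there. The authors deposited 1 score per gene and library and named it CPM. The values contradict that name, being whole numbers with nearly equal totals and the top value of 78894 shared by 10 genes in each library, so they were treated as a normalized score, and the limma test fixed for CPM was kept.

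Values were divided by 14.7 (so that totals matched those of a CPM table), a pseudocount of 1 was added and log2 taken, which understates changes of low genes. Genes needed a scaled value of 1 in 2 libraries; all 53 passed. The comparison of KO with WT used limma 3.58.1 (R 4.3.3; lmFit and eBayes with a trend, two-sided, 4 residual degrees of freedom, no covariate). All adjusted p-values come from this fit or its alternatives, except that of the ratios, which came from the permutation tests. The fit was also run on simulated data with independent normal noise per gene. These data held no steps or chromosome-wide shifts, so that run says nothing of such features. Ratios and SDs use deposited units. Genes were matched by identifier to GENCODE M21 (10941 of 10989, and all 53 regulators), length was the median of protein-coding basic transcripts, and near-identical copies were found with blastn 2.17.0. Named were all called regulators, the largest change of each family, the 6 highest per length, Hnrnph1, Hnrnph2 and Hnrnpf, and 3 called genes each way of the other factors; the rest were added to account for every regulator. Members and lists were chosen with earlier results of these data known. Alternatives were other pseudocounts (5 and 0.5), filters (none, or 5 in 2 libraries), quantile and trimmed-mean (TMM) scaling with unweighted factors, centring by chromosome, no trend, library weights, a replicate block and each library left out.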

Additional observations from a re-analysis of the deposited data

Results flagged for a closer look

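In 6 of the 51 regulators whose KO lines were not all at 1 value, 1 KO line stood apart from the other 3 by more of the group's log2 range than Dixon's critical value for 4 samples; chance flags about 1 in 20 groups. KO line 1 was the high one for Srrm2 (20704 units, the others 17574; gap 1 of the range) and the low one for Hnrnph2 (1753 units, the others 1958 to 1967; gap 0.96). KO line 4 was the high one for Hnrnpul2 (4842 units, the others 4294 to 4334; gap 0.923) and the low one for Hnrnpr (2244 units, the others 2704 to 2728; gap 0.955). KO line 3 was the low one for Hnrnpk (25010 units, the others 29855; gap 1) and the high one for Celf1 (6983 units, the others 6845; gap 1). For Srrm2, Hnrnpk and Celf1 the other 3 lines share 1 step of the table, which by itself gives a gap of 1.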

How the results depend on the processing

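The main fit called 7 regulators higher and 8 lower, and 3 other splicing factors higher and 10 lower. These counts stayed within 1.5 times under both pseudocounts, quantile normalization, TMM scaling and without the trend. Both alternative filters kept all 10989 genes, so those fits only repeat the main one and test nothing. Centring by chromosome gave 6 other factors higher. Library weights left 1 regulator higher and 1 lower, and 1 other factor higher and 3 lower. With 1 library left out, regulators called higher numbered 1 to 8 and lower 1 to 11, and other factors 2 to 10 and 5 to 15. The replicate block (KO lines 1 and 2 with WT replicates 1 and 2) called 0 regulators higher and 0 lower, and 1 other factor higher and 1 lower. An unpaired fit of the same 4 libraries, added after seeing the data, called 0 in all 4 counts. At an unadjusted p below 0.05 in limma, the block had 20 regulators and 20 other factors, and the unpaired fit 21 and 20, against 22 and 34 with all libraries. With all libraries, 36% of all genes passed that threshold. This share was not computed for the block or the unpaired fit, so their counts have no background to be read against. Whether the numbers pair the samples cannot be told from these values. Deviations of same-numbered libraries correlated at 0.14 and 0.097, and KO line 3, which has no partner, at 0.096 with WT replicate 2. With 2 WT libraries their deviations mirror each other, so such correlations cannot decide it. Over all genes, 1878 were called with all 6 libraries, 472 without KO line 2, 572 without KO line 3, 382 with library weights and 75 with the block. The cause of these losses was not tested. The upper ends of the ranges with 1 library left out all came from the fit without WT replicate 1. More of all genes were called there too than with all 6 libraries, so those counts rose along with the whole table. That fit rests on 1 WT library.

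No called regulator changed sign. Among those not called, log2 fold changes turned sign for 14, given here as the range with 1 library left out, whose ends came with a WT replicate left out except as stated. The range was -0.25 to 0.0038 for Srsf5, -0.25 to 0.052 for Srsf1, -0.18 to 0.036 for Srsf2, -0.14 to 0.21 for Srsf10, -0.14 to 0.40 for Srsf7, -0.14 to 0.27 for Tra2b, -0.99 to 0.021 for Hnrnpc, -0.057 to 0.19 for Hnrnpul1, -0.92 to 0.022 for Celf2, -0.13 to 0.15 for Rbfox2, -0.43 to 0.63 for Mbnl2 and -0.20 to 0.82 for Celf4. It was -0.16 to 0.055 for Hnrnph1 and -0.023 to 0.15 for Hnrnpa1, from leaving out KO lines. TMM scaling gave -0.014 for Srsf10 and -0.036 for Rbfox2. That scaling lowered the median of all genes to -0.0038, against 0.04 with the deposited scaling, a shift larger than either gene's value, so these signs say nothing of the genes. Centring by chromosome gave -0.058 for Rbfox2 and -0.0055 for Hnrnpa1. The replicate block and the unpaired fit both gave -0.068 for Hnrnpa1 and 0.023 for Hnrnph1. Library weights gave 0.023 for Hnrnph1 and -0.0015 for Mbnl2, and quantile normalization gave -0.20 for Celf4. Depth is unknown, so what counting error adds cannot be given.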

Other observations

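Besides the genes named above, the other splicing factors that fell, chosen after their values were seen, were Sap18 (log2 -1.14), Sart1 (-0.76), Prpf4b (-0.62), Taf15 (-0.53), Syncrip (-0.53), Sfpq (-0.49) and Rbm39 (-0.31). Prpf4b is a kinase of splicing proteins, Syncrip is an hnRNP relative of Hnrnpr, Sfpq is a paraspeckle protein, and Sap18 and Sart1 are parts of the exon junction and tri-snRNP complexes. Sart1, Prpf4b and Syncrip passed with each of the 6 libraries left out. Rbfa (-0.50), also on the list and called lower, is a mitochondrial ribosome assembly factor and not a splicing factor; without it the list has 9 called lower.

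The summed level of the 53 regulators was 2.66% to 2.76% of the library total in the KO lines, against 2.80% and 2.77% in WT replicates 1 and 2.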
